A study of Homo sapiens with 9 samples.

Results

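Solute carriers are membrane proteins that move amino acids, sugars, ions, metals, vitamins and metabolites across the plasma membrane and the membranes of organelles. Their gene symbols give the family number, the letter A and a member number. All genes whose symbol has this form were taken from the table of normalized read counts of COR-L279 cells, with SLC7A11, SLC7A5 and SLC3A2 left out. This gave 225 rows for 223 gene symbols, of 17518 rows in the table. They fell into amino acid transporters (34), glucose and other sugar transporters (12), monoamine transporters (4), zinc transporters (20), mitochondrial carriers of the SLC25 family (44) and 111 members outside these 5 families.

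The established human line COR-L279 comes from a small cell lung cancer of subtype SCLC-N, a neuroendocrine tumour type marked by the transcription factor NEUROD1. JQ1 is a BET inhibitor: it binds the bromodomains of the BET protein family and so keeps these proteins off acetylated chromatin. Cells labelled wild type in genotype were kept for 24 h in DMSO, the solvent control, or in JQ1 at 0.5 µM or 1.5 µM, with 3 replicates per group and 9 libraries in all. The labels call the replicates biological without naming separate cultures, so p-values measure the spread between these samples, which may be technical. The comparisons ask which transporter genes differ between each dose and DMSO, and between the doses; both comparisons with DMSO use the same 3 DMSO libraries. All results rest on 1 cell line and 1 time, and in bulk RNA fewer cells with a transcript and less transcript per cell cannot be told apart.

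Cells import amino acids through sodium-coupled carriers of the SLC1, SLC6 and SLC38 families and through exchangers of the SLC7 family. Zinc leaves the cytosol into secretory granules or the medium through ZnT proteins (SLC30) and enters it through ZIP proteins (SLC39). Vesicular monoamine transporters (SLC18) load dopamine, noradrenaline and serotonin into the secretory vesicles of neuroendocrine cells. SLC25 proteins of the inner mitochondrial membrane exchange ADP for ATP and carry phosphate, citrate and other metabolites.

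The libraries held between 60721187 and 88482001 reads in genes. The neuroendocrine markers NEUROD1, INSM1, CHGA, SYP, NCAM1 and DDC summed to between 1295 and 1436 FPKM (fragments scaled to transcript length and library size) in every library. Within this sum, NEUROD1 and NCAM1 were higher in every JQ1 library than in DMSO, and CHGA, SYP and DDC were lower. INSM1 overlapped with DMSO at 0.5 µM and was lower at 1.5 µM. NEUROD1 held 264 to 271 FPKM in DMSO and 357 to 365 at 1.5 µM. CHGA went from 512 to 537 FPKM in DMSO to 362 to 379 at 1.5 µM, and DDC from 95.4 to 96.1 to 25.8 to 26.9. The leukocyte markers summed to at most 0.47 FPKM. The endothelial markers summed to at most 0.07 FPKM. The squamous and basal markers KRT5, KRT14 and TP63 summed to 2.23 to 2.39 FPKM in DMSO and 0.09 to 0.14 with JQ1, nearly all of it TP63, with KRT14 listed at 0. H19, an imprinted noncoding RNA, held 63.8 to 82.8 normalized counts in DMSO and 1.04 to 8.22 in 3 of the JQ1 libraries. Replicate 3 at 0.5 µM and replicates 1 and 2 at 1.5 µM stood apart, with 1476 to 2071 normalized counts of H19. In these 3 libraries the fibroblast genes COL1A1, COL1A2, COL3A1, DCN, LUM and PDGFRB summed to 11.4 to 14.2 FPKM, whereas the remaining JQ1 libraries had 5.08 to 5.78 and DMSO had 15.8 to 16.9. LUM and COL3A1 held most of the difference between the JQ1 libraries (LUM 2.91 to 4 FPKM against 0.02 to 0.06 in the other JQ1 libraries). The DMSO sum was nearly all COL1A2, at 14.7 to 15.7 FPKM in DMSO against 4.46 to 6.04 with JQ1. In DMSO, LUM held 0.29 to 0.51 FPKM, COL3A1 held 0.35 to 0.5 and DCN was listed at 0. The part of these markers in the transporter results was not tested. Another library, 0.5 µM replicate 2, lay alone on the second principal component (-50.6, against -11.3 to 25.2).

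RefSeq promoters (assembly GRCh38.p14) were found for 179 of the 223 symbols, each from 250 bases before to 50 bases after the annotated start. Shown here are the bases before the start for members that fell (SLC38A5, SLC43A1 and SLC26A4) and members that rose (SLC38A2 and SLC16A10), 5′ to 3′ on the strand of the gene. Capitals mark CACGTG, an E-box bound by MYC and MAX; CAGATG or CAGCTG, E-boxes bound by neurogenic helix-loop-helix factors; and TATAAA, each on either strand. The motif CAGATG reads CATCTG on the other strand.
SLC38A5, chrX:48470261-48470510, minus strand: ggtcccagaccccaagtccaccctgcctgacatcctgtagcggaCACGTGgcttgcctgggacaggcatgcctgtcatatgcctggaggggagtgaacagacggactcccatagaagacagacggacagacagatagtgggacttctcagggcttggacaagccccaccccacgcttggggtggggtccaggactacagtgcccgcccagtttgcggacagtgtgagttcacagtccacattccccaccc
SLC43A1, chr11:57515703-57515952, minus strand: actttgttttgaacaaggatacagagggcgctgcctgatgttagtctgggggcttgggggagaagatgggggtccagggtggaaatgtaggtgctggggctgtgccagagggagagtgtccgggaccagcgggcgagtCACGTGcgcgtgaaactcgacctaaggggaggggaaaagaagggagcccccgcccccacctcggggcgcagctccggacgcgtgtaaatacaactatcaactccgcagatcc
SLC26A4, chr7:107660578-107660827, plus strand: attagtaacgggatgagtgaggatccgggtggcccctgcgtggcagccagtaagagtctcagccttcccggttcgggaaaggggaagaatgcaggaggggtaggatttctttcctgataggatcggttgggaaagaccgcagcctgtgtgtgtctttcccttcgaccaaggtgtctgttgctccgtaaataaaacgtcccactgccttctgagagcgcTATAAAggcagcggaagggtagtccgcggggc
SLC38A2, chr12:46372774-46373023, minus strand: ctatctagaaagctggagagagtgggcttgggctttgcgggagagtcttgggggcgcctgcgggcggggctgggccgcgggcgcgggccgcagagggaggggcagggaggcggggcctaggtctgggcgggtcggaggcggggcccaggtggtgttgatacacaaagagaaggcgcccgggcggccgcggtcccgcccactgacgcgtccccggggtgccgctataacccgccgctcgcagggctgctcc
SLC16A10, chr6:111087253-111087502, plus strand: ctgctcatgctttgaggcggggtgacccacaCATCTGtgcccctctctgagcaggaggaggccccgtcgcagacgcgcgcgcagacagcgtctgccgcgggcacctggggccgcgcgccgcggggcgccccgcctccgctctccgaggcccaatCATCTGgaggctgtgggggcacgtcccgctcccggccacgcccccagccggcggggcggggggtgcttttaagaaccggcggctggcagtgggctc
The windows of SLC38A5 and SLC43A1 each hold 1 CACGTG, that of SLC26A4 holds 1 TATAAA, and that of SLC16A10 holds CAGATG at 2 places. The window of SLC38A2 holds none of these letters. CACGTG stood in 10 of 85 promoters of members lower at 1.5 µM (11.8%), in 6 of 59 of those higher (10.2%) and in 7.43% of all 27305 RefSeq promoters of this length. TATAAA stood in 11 of the 85 promoters of members that were lower, in 0 of the 59 of members that were higher, and in 12% of all promoters. CAGATG stood in 5 of the 85 and 10 of the 59, beside 14.8% of all promoters, and CAGCTG in 14 of the 85 and 14 of the 59, beside 17.7%. Over both strands and all 179 members, the amino acid response motif TGATGCAA stood in 0 promoters (0.923% of all promoters). The metal response motifs TGCGCNC and TGCACNC stood in 45 and 17 of the 179 promoters (25.1% and 9.50%), beside 20% and 11.9% of all. CpG made up a median of 7.02% of the dinucleotides of the promoters of lower members, 9.36% of those of higher members and 4.68% over all promoters. These shares are descriptions, and no test was run on them.

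At 0.5 µM, limma on log2(normalized count + 1) called 65 of the 225 members higher and 98 lower than in DMSO at an adjusted p under 0.05, or 72.4%. Over all 17514 genes tested, 70% were called, 35.3% higher and 34.7% lower. At 1.5 µM, 73 members were higher and 106 lower (79.6%), beside 73.1% of all genes, 36.9% higher and 36.2% lower. The share of members called was thus near that of all genes at both doses. The members' median log2 fold change was -0.10 at both doses, and that of all genes was -0.01 at 0.5 µM and -0.0030 at 1.5 µM. At least 2-fold changes past the test were seen for 18 members upward and 37 downward at 1.5 µM, beside 7.05% of all genes upward and 11.8% downward. At 0.5 µM the counts were 8 and 33, beside 4.82% and 10.1% of all genes. The DMSO and JQ1 libraries did not overlap for 70 members upward and 102 downward at 0.5 µM (76.4%), beside 72.6% of all genes. At 1.5 µM this held for 75 and 110 members (82.2%), beside 81.7% of all genes.

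Lower calls outnumbered higher ones most among members with few reads. Of the 38 members with a mean under 100 normalized counts, 22 were lower and 5 higher at 1.5 µM, while of the 104 members between 1000 and 10000, 44 were lower and 44 higher. Among all genes the shares were 33.0% lower and 20.4% higher in the lowest band and 35.6% lower and 45.2% higher between 1000 and 10000. Of the 13 members above 10000 normalized counts, 6 were higher and 3 lower.

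**Figure D1:**
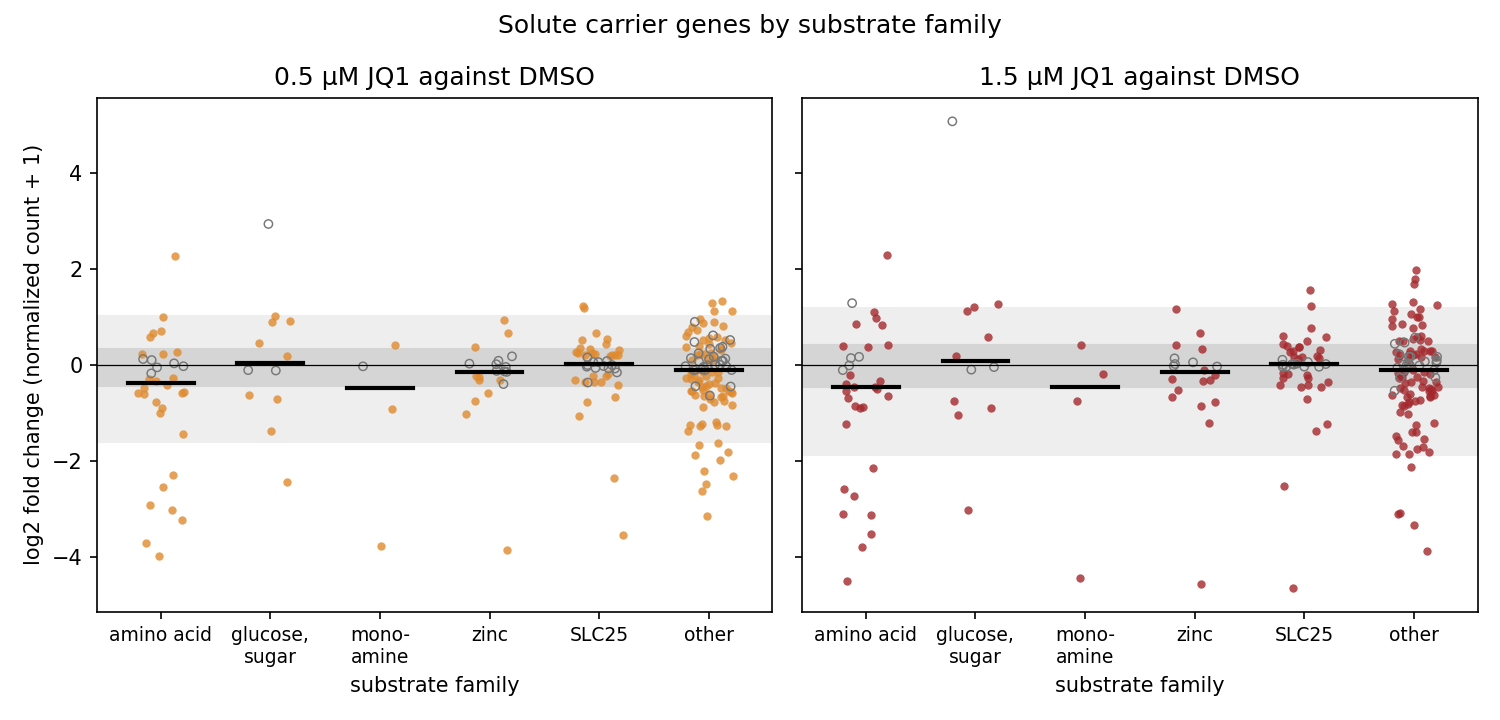
Log2 fold changes of the 225 solute carrier rows by substrate family, at 0.5 µM (left) and 1.5 µM JQ1 (right) against DMSO. Filled points passed the test, open points did not, black bars are medians, and the grey bands span the 25th to 75th and the 5th to 95th percentiles of all genes tested. Amino acid transporters had medians of -0.37 and -0.46; the high open point among the sugar transporters is SLC2A3.

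Amino acid transporters were more often lower than higher. At 0.5 µM 8 of 34 rose and 20 fell, with a median log2 fold change of -0.37. At 1.5 µM 8 rose and 21 fell, with a median of -0.46, beside the all-gene shares of 36.9% higher and 36.2% lower. Summed over the family, the level per transcript length was 450.5 ± 13.1 FPKM in DMSO, 344 ± 10.4 at 0.5 µM and 342 ± 5.70 at 1.5 µM (SD, n = 3). No JQ1 library reached the lowest DMSO library, and the sum was not tested. On FPKM values 5 of the 28 members tested rose at 0.5 µM, against 8 of 34 on normalized counts. Of all genes, 5146 of 17951 rose on FPKM values, against 6174 of 17514.

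SLC38A5 (ENSG00000017483.10), a sodium-coupled carrier of glutamine, asparagine, serine and glycine, held 2360.4, 2146 and 2305 normalized counts under DMSO, 153, 139.7 and 137 at 0.5 µM and 87.6, 104 and 111 at 1.5 µM. Every JQ1 library lay below every DMSO library, and every 1.5 µM library below every 0.5 µM library. Its mean was 15.9-fold lower at 0.5 µM and 22.5-fold lower at 1.5 µM, with log2 fold changes of -3.98 ± 0.10 (SE, adjusted p = 9.04e-10) and -4.49 ± 0.10 (adjusted p = 1.6e-10).

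SLC43A1, the large neutral amino acid transporter LAT3, fell from 1272 ± 33.6 to 192 ± 21.7 normalized counts at 1.5 µM (SD, n = 3), with libraries at 1276, 1236 and 1303 in DMSO, 228, 285 and 267 at 0.5 µM and 170.1, 193 and 213 at 1.5 µM. Its paralog SLC43A2, which encodes LAT4, moved the other way. SLC43A2 stood at 1029, 984 and 1035 in DMSO, 1629, 1438 and 1530.1 at 0.5 µM and 1892, 1798 and 1837 at 1.5 µM, a log2 fold change of 0.59 ± 0.05 (SE) at 0.5 µM and 0.86 ± 0.05 at 1.5 µM (adjusted p = 9.98e-08). For both genes the groups did not overlap between DMSO and either dose.

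All 6 amino acid carriers of the SLC6 family fell at both doses, beside 34.7% of all genes lower at 0.5 µM and 36.2% at 1.5 µM. They were SLC6A9, SLC6A15, SLC6A17, SLC6A18, SLC6A19 and SLC6A20. SLC6A9, the glycine transporter GlyT1, held 265, 259.7 and 303 normalized counts under DMSO, 45.6, 31.7 and 31.5 at 0.5 µM and 28.9, 17.7 and 13.3 at 1.5 µM. That is 7.60-fold lower at 0.5 µM and 13.8-fold lower at 1.5 µM, and no JQ1 library exceeded 45.6 while no DMSO library lay under 259.7.
SLC6A20, which carries proline and related imino acids, fell from 122 ± 0.306 to 14.1 ± 5.32 normalized counts at 1.5 µM. SLC6A18 fell from 119.8 ± 13.4 to 26.2 ± 2.66 and SLC6A19, an importer of neutral amino acids in kidney and gut, from 54.6 ± 4.50 to 3.93 ± 1.09. SLC6A15, a carrier of branched-chain amino acids in neurons, was the most highly expressed of the 6 and fell from 6532 ± 84.4 to 2799 ± 168. The smallest change was that of SLC6A17, a vesicular carrier of neutral amino acids, at -0.50 ± 0.09 (log2, SE; adjusted p = 0.00033). SLC6A15, SLC6A17 and SLC6A19 lie outside the rule for named genes and were described after their values were seen.

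The most highly expressed amino acid carriers per transcript length in DMSO were SLC38A7, SLC38A1 and SLC1A5. SLC38A7, a lysosomal glutamine and asparagine exporter, stood at 54.99 FPKM in DMSO, 41.6 at 0.5 µM and 39.4 at 1.5 µM, and SLC38A1, a plasma membrane glutamine importer, at 48.5 FPKM in DMSO, 42.1 at 0.5 µM and 39.9 at 1.5 µM. Both fell by less than 0.5 on the log2 scale at each dose, SLC38A7 with -0.40 ± 0.03 and SLC38A1 with -0.34 ± 0.03 at 1.5 µM (SE). SLC1A5, the neutral amino acid exchanger ASCT2, changed more and held 7924, 7735 and 7825 normalized counts under DMSO, 4767, 4406 and 4639.8 at 0.5 µM and 4397, 4157 and 4340.4 at 1.5 µM. Its log2 fold change was -0.77 ± 0.04 at 0.5 µM and -0.87 ± 0.04 at 1.5 µM (SE, adjusted p = 8.1e-09). SLC17A6, which loads glutamate into synaptic vesicles, fell at both doses, with means of 8402 ± 262 in DMSO, 5644 ± 187 at 0.5 µM and 4659.6 ± 118 at 1.5 µM normalized counts (SD, n = 3).

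SLC38A2, a glutamine and alanine importer that cells are known to induce when amino acids are scarce, rose. Its libraries held 7051, 7259 and 7619 normalized counts under DMSO, 12077, 10593 and 12086 at 0.5 µM and 12584, 13358 and 13035 at 1.5 µM, a log2 fold change of 0.66 ± 0.05 and 0.83 ± 0.05 (SE; adjusted p = 1.29e-06 and 1.64e-07). At 1.5 µM it had the highest FPKM of the family, 26.4 FPKM in DMSO, 40.7 at 0.5 µM and 46.6 at 1.5 µM. SLC38A10, a member of the same family found inside cells, rose from 2982 ± 52.8 to 6414 ± 128 at 1.5 µM, or 2.15-fold. SLC16A10, a carrier of aromatic amino acids, rose from 1066 ± 27.5 to 2106 ± 24.9, or 1.98-fold. SLC36A1, a proton-coupled exporter of small amino acids from lysosomes, reached a log2 fold change of 0.42 ± 0.07 at 1.5 µM (adjusted p = 0.000274). At 0.5 µM its groups overlapped, with 937, 935 and 1047 in DMSO, 1179, 1022 and 1214 at 0.5 µM and 1313, 1323 and 1273 at 1.5 µM (0.22 ± 0.07, adjusted p = 0.0156), and the call was lost without the 3 libraries that stand apart (0.18), on FPKM values (0.16), with upper-quartile scaling (0.17) and without any one of DMSO replicates 1 and 2 and 0.5 µM replicates 1 and 3 (0.18 to 0.20). SLC38A3 had the highest log2 fold change of the family at both doses (2.28 ± 0.39 at 1.5 µM) at low counts, from 6.63 ± 2.70 to 36.1 ± 12.6. SLC38A8, a glutamine carrier of the retina, fell from 39.04 ± 7.06 to 3.63 ± 0.838, and SLC17A8, a vesicular glutamate transporter, from 56.4 ± 6.65 to 10.4 ± 8.25. These 3 genes lie outside the rule and were named after their values were seen.

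**Figure D2:**
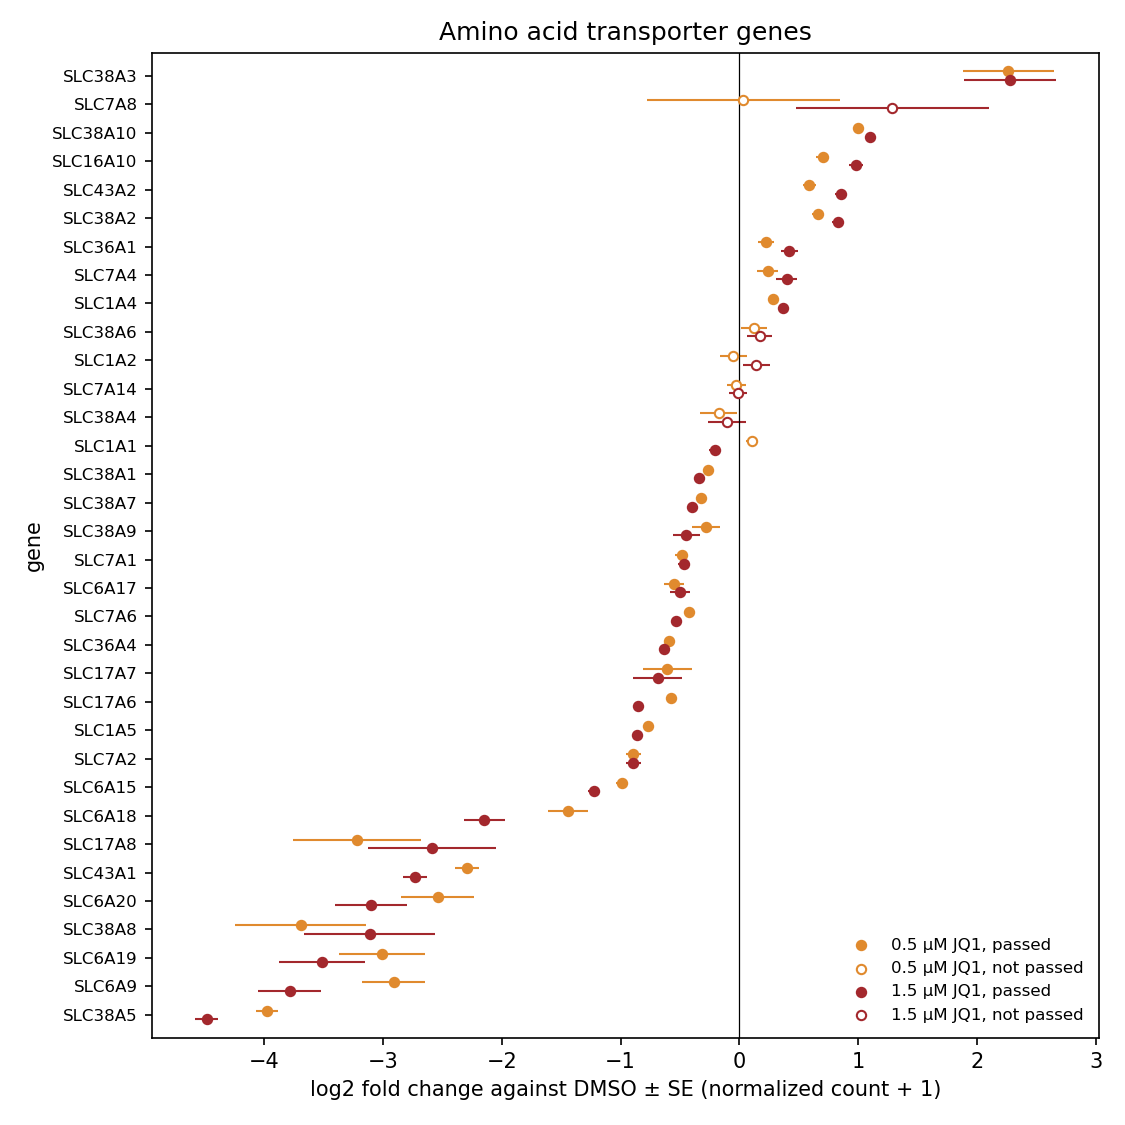
Log2 fold changes ± SE of the 34 amino acid transporter genes at 0.5 µM (orange) and 1.5 µM JQ1 (red) against DMSO, ordered by the value at 1.5 µM. Filled points passed the test; the changes reach from -4.49 for SLC38A5 to 2.28 for SLC38A3 at 1.5 µM.

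Of 21 genes of amino acid sensing by the growth kinase mTORC1, 11 were higher and 4 lower at each dose, with a median of 0.10 at 0.5 µM and 0.13 at 1.5 µM. The all-gene shares were 35.3% higher and 34.7% lower at 0.5 µM and 36.9% and 36.2% at 1.5 µM. SESN3, a stress-induced inhibitor of mTORC1 signalling, rose from 4959 ± 264 to 20190.0 ± 223 normalized counts at 1.5 µM. GATSL3, which encodes an arginine sensor, rose from 22.8 ± 5.96 to 56.8 ± 16.7.

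Zinc transporter genes were counted by direction of transport. Of the 9 ZnT genes 3 rose and 2 fell at 0.5 µM, against 3 higher and 3 lower at 1.5 µM. Of the 11 ZIP genes 6 fell and 5 did not pass at 0.5 µM; at 1.5 µM 8 fell, 1 rose and 2 did not pass. Of all genes, 34.7% were lower and 35.3% higher at 0.5 µM, and 36.2% lower and 36.9% higher at 1.5 µM. The median log2 fold change was 0.06 for ZnT and -0.29 for ZIP genes at 1.5 µM. Whether ZnT and ZIP genes differ was not tested. Summed FPKM over all 20 was 417 ± 4.04 in DMSO, 391 ± 2.04 at 0.5 µM and 384 ± 3.26 at 1.5 µM, with no overlap between DMSO and JQ1 libraries.

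SLC30A8, which loads zinc into the insulin granules of pancreatic beta cells, was the zinc gene that changed most. It held 3564, 3575 and 3506 normalized counts under DMSO, 269.8, 277 and 201 at 0.5 µM and 135, 154 and 164 at 1.5 µM. The highest JQ1 library lay at 277 and the lowest DMSO library at 3506, and the 3 groups did not overlap. The means differed 14.2-fold at 0.5 µM and 23.5-fold at 1.5 µM, with log2 fold changes of -3.84 ± 0.12 and -4.55 ± 0.12 (SE; adjusted p = 2.21e-09 and 4.1e-10). SLC30A3, which loads zinc into synaptic vesicles, fell from 70.2 ± 4.70 to 38.9 ± 8.45 and SLC30A10, a manganese exporter, from 65.8 ± 5.69 to 38.4 ± 5.78 at 1.5 µM. Both calls were lost without the 3 libraries that stand apart (-0.62 and -0.60 on the log2 scale), a fit that leaves 1 library at 1.5 µM. The call of SLC30A3 at 0.5 µM (-0.74 ± 0.22) was lost on FPKM values (-0.49).

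SLC30A9, which acts on mitochondrial zinc, rose, and per transcript length it stood at 56.4 FPKM in DMSO, 82.6 at 0.5 µM and 83.6 at 1.5 µM, the highest of the zinc genes at both doses. Its libraries held 11266, 11615 and 11543 normalized counts under DMSO, 17491, 19396 and 17471 at 0.5 µM and 17817, 18226 and 18421 at 1.5 µM, with no difference beyond the spread between the doses (0.00 ± 0.04, adjusted p = 0.957). SLC30A4 rose 2.23-fold at 1.5 µM, from 295 ± 32.4 to 659 ± 55.2 normalized counts, and SLC30A5 from 2042 ± 43.4 to 2737 ± 47.2; both move zinc into compartments of the secretory pathway. SLC30A1, the plasma membrane zinc exporter, did not pass at either dose, with 747, 800.1 and 807 in DMSO, 851, 813 and 839 at 0.5 µM and 927, 826 and 842 at 1.5 µM. Its value at 1.5 µM lay next to the threshold (0.14 ± 0.06, adjusted p = 0.0513) and passed in 7 alternatives, edgeR and the fit without 0.5 µM replicate 2 or 1.5 µM replicate 2 (0.17) among them.

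Among the ZIP genes, SLC39A11 changed most and held 929, 880.2 and 941 normalized counts under DMSO, 473, 446 and 446 at 0.5 µM and 391, 394 and 401 at 1.5 µM, with no overlap between groups. Its log2 fold change was -1.21 ± 0.06 at 1.5 µM (adjusted p = 1.23e-08). SLC39A1, a ubiquitous zinc importer, fell from 4224 ± 96.2 to 2651 ± 31.97, SLC39A6 from 11533 ± 205 to 9443 ± 192 and SLC39A10 from 4344 ± 261 to 3479 ± 176 normalized counts at 1.5 µM. SLC39A7, which releases zinc from the endoplasmic reticulum and had the highest FPKM of the zinc genes in DMSO (66.8 ± 0.420), had means of 9301 ± 149 in DMSO, 9413 ± 329 at 0.5 µM and 9160.4 ± 261 at 1.5 µM and passed at neither dose. SLC39A9, a ZIP of the Golgi, held 7383, 7388 and 7764 in DMSO, 9248, 7024 and 9498 at 0.5 µM and 9359.8, 9647 and 9526 at 1.5 µM. It passed at 1.5 µM (0.34 ± 0.09, adjusted p = 0.00671), and not at 0.5 µM, where replicate 2 lay below the DMSO libraries. Without that replicate it passed at 0.5 µM (0.32), and without the 3 libraries that stand apart it did not pass at 1.5 µM (0.34).

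Of 7 measured genes for metallothioneins, which bind zinc and copper, and their activator MTF1, 3 rose at 0.5 µM and 4 at 1.5 µM. The others did not pass. That is 42.9% and 57.1% higher, beside 35.3% and 36.9% of all genes. MT2A rose from 238 ± 20.3 to 639 ± 48.6 normalized counts at 1.5 µM and MT3, the metallothionein of neurons, from 116 ± 9.49 to 246 ± 21.3.

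**Figure D3:**
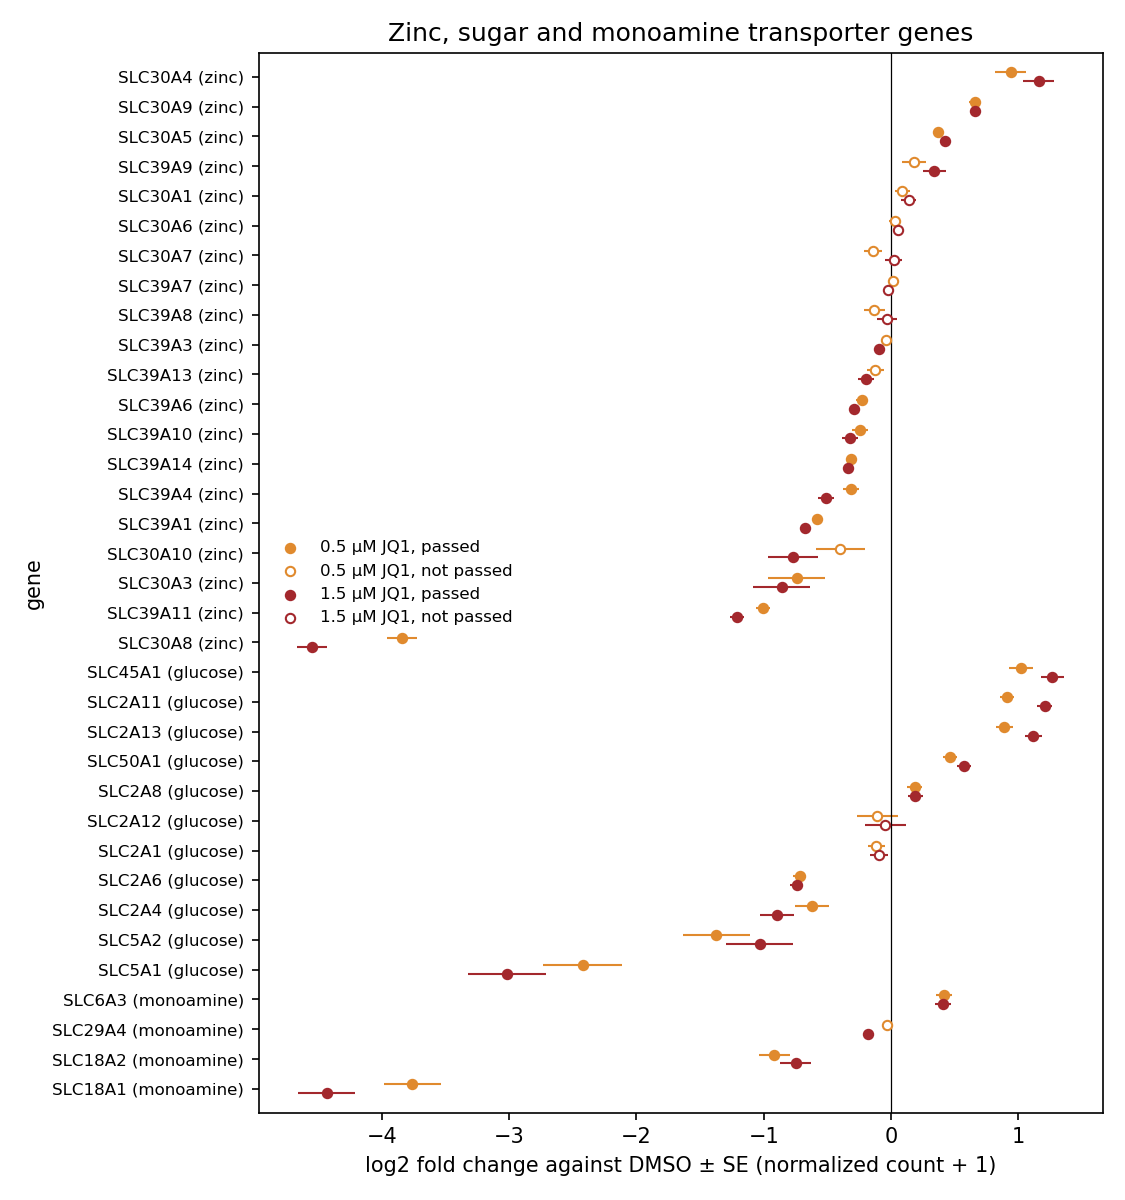
Log2 fold changes ± SE of the 20 zinc, 11 of the 12 sugar and the 4 monoamine transporter genes at 0.5 µM (orange) and 1.5 µM JQ1 (red) against DMSO; SLC2A3, whose SE was 2.54, is plotted by library instead. SLC30A8 and SLC18A1 had the lowest values (-4.55 and -4.43 at 1.5 µM).

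All 4 monoamine transporter genes in the table were measured in every library. SLC18A1, the vesicular monoamine transporter VMAT1 of neuroendocrine cells, held 341, 323 and 314 normalized counts under DMSO, 20.8, 29.3 and 20.3 at 0.5 µM and 11.3, 18.6 and 13.3 at 1.5 µM. It was 13.9-fold lower at 0.5 µM and 22.6-fold lower at 1.5 µM (log2 -4.43 ± 0.22, adjusted p = 2.71e-08), and all JQ1 libraries lay at or under 29.3. SLC18A2, which encodes the related VMAT2, had means of 563 ± 31.01 in DMSO, 300.2 ± 53.1 at 0.5 µM and 335 ± 22.02 at 1.5 µM. Its log2 fold changes were -0.92 ± 0.12 and -0.75 ± 0.12, both past the test, and the doses did not differ beyond their spread (adjusted p = 0.38).
SLC6A3, the dopamine reuptake transporter, rose, with libraries at 1529, 1568 and 1665 in DMSO, 2197, 1906 and 2267 at 0.5 µM and 2062, 2202 and 2067 at 1.5 µM. SLC29A4, a low-affinity monoamine transporter of the plasma membrane and the most highly expressed of the 4 (22.6 ± 0.873 FPKM in DMSO), passed at 1.5 µM (-0.18 ± 0.03, adjusted p = 0.000489) and not at 0.5 µM (-0.03 ± 0.03, adjusted p = 0.464).

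Of the 12 sugar transporter genes, 5 rose, 4 fell and 3 did not pass at each dose. The 75% called lay near the shares of all genes, 70% at 0.5 µM and 73.1% at 1.5 µM. Summed FPKM was 89.4 ± 1.48 in DMSO, 98.0 ± 1.96 at 0.5 µM and 103 ± 2.87 at 1.5 µM (SD, n = 3). On FPKM values 2 of 10 members, rather than 4 of 12, fell at 1.5 µM. Of all genes, 6245 of 17951 fell on FPKM values, against 6338 of 17514.

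SLC2A1, the main glucose transporter GLUT1 of proliferating cells, was the most highly expressed of them in DMSO (26.2 ± 0.237 FPKM) and held 4125, 4124 and 4218 normalized counts under DMSO, 3781, 3457 and 4329 at 0.5 µM and 4042, 3926 and 3701 at 1.5 µM. Its change did not pass at either dose (-0.11 ± 0.07 and -0.10 ± 0.07, adjusted p = 0.166 and 0.234). At 0.5 µM it did pass, as lower, without 0.5 µM replicate 3 alone or all 3 libraries that stand apart (-0.20) and on FPKM values (-0.23). With library weights it passed at both doses (-0.10), and at 1.5 µM also in the fit to the 6 libraries compared (-0.10). SLC5A1, the sodium-coupled glucose importer of gut and kidney, fell 8.05-fold at 1.5 µM, from 124 ± 3.48 to 15.5 ± 6.26. SLC2A6, a lysosomal GLUT, fell from 2120.1 ± 19.9 to 1268 ± 54.04 and SLC2A4, the insulin-regulated GLUT4, from 166 ± 28.2 to 88.3 ± 3.00.

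SLC2A11, a fructose and glucose carrier, rose at both doses and held 545, 620.5 and 581 normalized counts under DMSO, 1096, 1056 and 1139 at 0.5 µM and 1345, 1365 and 1324 at 1.5 µM. SLC2A13, a proton-coupled inositol carrier, rose, with means of 968 ± 65.1 in DMSO, 1795 ± 90.3 at 0.5 µM and 2104 ± 143 at 1.5 µM. SLC45A1, a proton-coupled sugar carrier of neurons, rose 2.42-fold at 1.5 µM from 120.1 ± 7.49 to 291 ± 19.4. SLC50A1, the animal member of the SWEET sugar exporters, rose from 1331 ± 35.1 to 1986 ± 33.3 and had the highest FPKM of the family in JQ1 (21.8 FPKM in DMSO, 30.2 at 0.5 µM and 30.9 at 1.5 µM). SLC2A8 passed with small rises at both doses (0.19 ± 0.06 and 0.19 ± 0.06). These calls were lost on FPKM values (0.13 and 0.12) and with upper-quartile scaling (0.13 and 0.14). At 0.5 µM the call was also lost without DMSO replicate 3 (0.17), 0.5 µM replicate 3 or the 3 libraries that stand apart (0.13).

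Of the 5 measured genes for hexokinases and the arrestins TXNIP and ARRDC4, 3 rose and 2 fell at each dose. These arrestins withdraw glucose transporters from the cell surface. Of all genes, 35.3% were higher and 34.7% lower at the lower dose, and 36.9% higher and 36.2% lower at 1.5 µM. HK2, the hexokinase of many tumours, fell from 5112 ± 269.7 to 1937 ± 28.7 at 1.5 µM. TXNIP rose from 1587 ± 16.9 to 5490.5 ± 164 and ARRDC4 from 1093 ± 20.3 to 2926 ± 131. HK2 and ARRDC4 were named after their values were seen.

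SLC2A3, the neuronal glucose transporter GLUT3, was detected almost only in the 3 libraries that stand apart. It held 489 normalized counts in 0.5 µM replicate 3 and 479 and 390.5 in 1.5 µM replicates 1 and 2, against at most 3.52 in the other 6 libraries. Its log2 fold change was 5.07 ± 2.54 at 1.5 µM (limma adjusted p = 0.0952), so it did not pass, although edgeR and DESeq2 on the recovered reads called it at both doses. Without 1.5 µM replicate 3 it passed at 1.5 µM (7.99). Among the members, SLC7A8, SLC15A1 and SLC13A4 were also higher in each of these 3 libraries than in every other JQ1 library, with means at least 2-fold apart. With SLC2A3 they were 4 of 225 members (1.78%), beside 103 of 17518 genes (0.588%) set apart this way, 90 of them higher. SLC7A8 and SLC15A1 were named after their values were seen. Of these, SLC13A4 passed at 1.5 µM (1.98 ± 0.48, adjusted p = 0.00351) and did not without the 3 libraries (1.36). At 0.5 µM it did not pass (0.90 ± 0.48), except without 0.5 µM replicate 2 (1.37), with library weights or in DESeq2. H19, LUM and COL3A1 were high in the same libraries, and their part in these values was not tested.

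SLC5A3, the sodium-coupled inositol importer, had 2 rows whose split of the counts differed in 1 library. In 1.5 µM replicate 2 the row ENSG00000198743.5 held 1639 normalized counts and the row ENSG00000272962.1 held 8955, while the other 1.5 µM libraries held 7479 to 7528 and 2814 to 2829. The second row passed at 1.5 µM (adjusted p = 0.0088) and, without this library, also at 0.5 µM (0.48), while the first passed at neither dose. Neither row alone is read as a change. The sum of both rows was 6158.5 ± 389 in DMSO, 8789 ± 930.3 at 0.5 µM and 10414 ± 159 at 1.5 µM, with no overlap between the groups. This sum was not tested. SLC25A6 also had 2 rows, with identical values, so this gene counts as 2 of the 225.

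**Figure D4:**
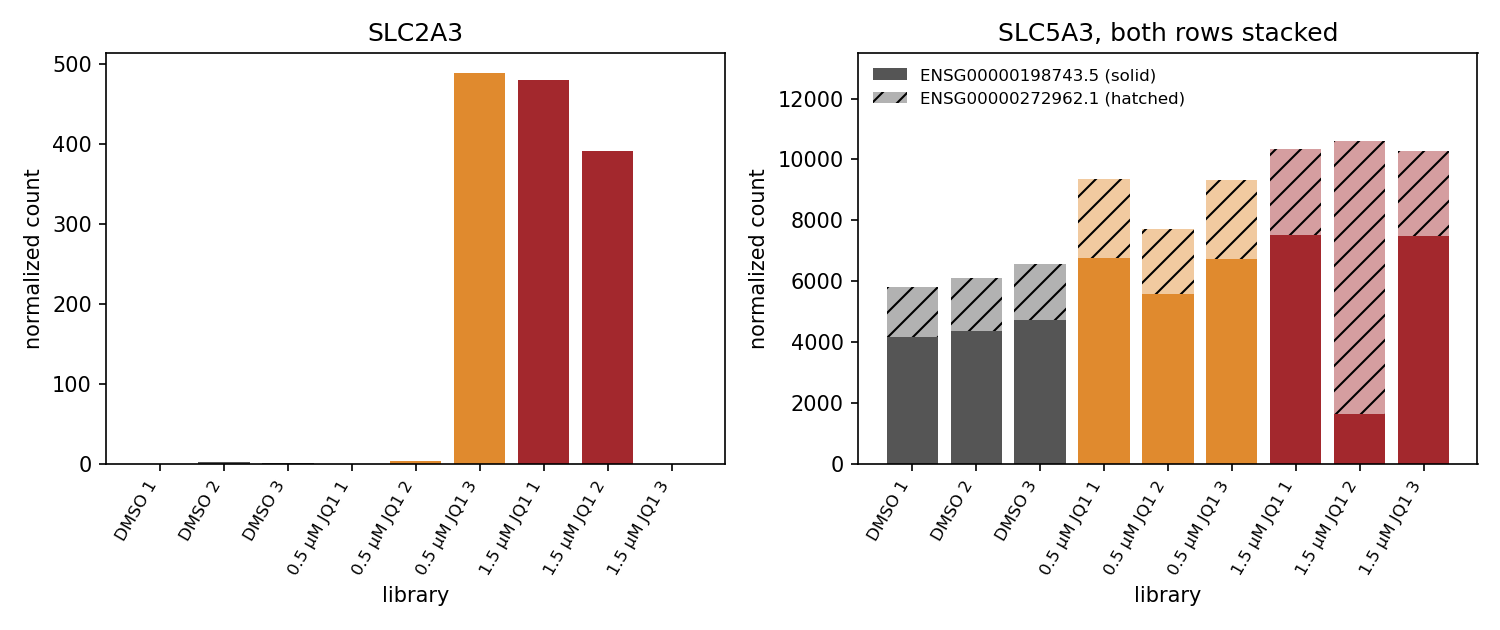
Normalized counts of SLC2A3 (left) and of both SLC5A3 rows stacked (right) in the 9 libraries. SLC2A3 stands between 390.5 and 489 in 3 libraries and at or under 3.52 in the rest; the stacked sum of SLC5A3 lies between 10292 and 10594 at 1.5 µM while its split differs in replicate 2.

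Of 44 rows of mitochondrial carriers, 18 rose and 13 fell at 0.5 µM, against 18 higher and 15 lower at 1.5 µM. The shares called, 70.5% and 75%, lay near the 70% and 73.1% of all genes, and the medians were 0.03 and 0.02. Summed FPKM was 1775 ± 25.5 in DMSO, 1793 ± 18.6 at 0.5 µM and 1786 ± 21.3 at 1.5 µM, so the groups overlapped. The most abundant members were SLC25A5, an ADP/ATP exchanger (394 FPKM in DMSO, 375 at 0.5 µM and 381 at 1.5 µM), and SLC25A3, the phosphate carrier (367 FPKM in DMSO, 341 at 0.5 µM and 358 at 1.5 µM). Neither passed at either dose: SLC25A5 had log2 fold changes of -0.03 ± 0.03 and 0.01 ± 0.03, and SLC25A3 of -0.07 ± 0.04 and 0.02 ± 0.04. The sign of both at 1.5 µM turned on FPKM values and when scaled by upper quartiles. SLC25A3 passed as lower at 0.5 µM on FPKM values, with upper-quartile scaling and without 0.5 µM replicate 1 (-0.10 to -0.12).

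SLC25A4, the ADP/ATP exchanger of heart and muscle, rose and held 3369, 3089 and 3225 normalized counts under DMSO, 4479.9, 4936 and 4584 at 0.5 µM and 5009, 4894 and 4789.8 at 1.5 µM. SLC25A1, which exports citrate to the cytosol, rose from 4163 ± 68.8 to 6226 ± 127 at 1.5 µM. SLC25A30 rose 2.35-fold from 533 ± 28.8 to 1253 ± 56.2, SLC25A40, a close relative of the glutathione importer SLC25A39, from 828 ± 60.1 to 1406 ± 35.3 and SLC25A27, an uncoupling-protein relative of neurons, from 39.2 ± 6.82 to 117 ± 12.2.
SLC25A53 fell most of those named by the rule, with 2774, 2765 and 2752 in DMSO, 1360.2, 1317 and 1269.8 at 0.5 µM and 1013, 1196 and 1019 at 1.5 µM. SLC25A26, which imports S-adenosylmethionine, fell from 451 ± 19.8 to 277 ± 19.6. SLC25A32, a folate and flavin carrier, fell from 2864 ± 22.5 to 2132 ± 4.31, and SLC25A23, an ATP-magnesium/phosphate carrier, from 5088 ± 49.97 to 3721 ± 95.5. SLC25A47 fell farther at low counts, from 89.02 ± 8.04 to 2.65 ± 0.756, and SLC25A43 from 95.9 ± 11.4 to 17.01 ± 7.48; both were named after their values were seen.

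Of 9 measured genes for other mitochondrial transport proteins (pyruvate carriers, voltage-dependent channels, uncoupling proteins and carrier homologs), 4 rose and 3 fell at 0.5 µM, against 3 higher and 3 lower at 1.5 µM. That is 77.8% and 66.7% called, beside 70% and 73.1% of all genes. UCP2, which encodes an uncoupling-protein homolog, rose from 9374 ± 187 to 16950.0 ± 72.4 and VDAC2, a channel of the outer membrane, fell from 10409 ± 281 to 7957 ± 93.97 at 1.5 µM.

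Among the 111 members outside the 5 families, 30 rose and 51 fell at 0.5 µM, against 37 higher and 52 lower at 1.5 µM. That is 73.0% and 80.2% called, beside 70% and 73.1% of all genes; the counts of the smaller classes that follow stand beside 35.3% of all genes higher and 34.7% lower at 0.5 µM, and 36.9% and 36.2% at 1.5 µM. Of 7 cation-chloride cotransporter genes, 4 rose and 3 fell at both doses. SLC12A2, the sodium-potassium-chloride importer NKCC1, held 1874, 1879 and 2133 normalized counts under DMSO, 5319, 4222 and 5361 at 0.5 µM and 6233, 6142 and 6486 at 1.5 µM. It rose 2.53-fold at 0.5 µM and 3.20-fold at 1.5 µM (log2 1.68 ± 0.09, adjusted p = 3.14e-08), and the 3 groups did not overlap. SLC12A8 fell from 428 ± 12.1 to 122 ± 6.89 at 1.5 µM. Of 5 Na,K-ATPase subunit genes, whose pump maintains the sodium gradient these carriers use, 1 rose and 1 fell at each dose. ATP1B2 rose from 37.6 ± 9.96 to 107 ± 5.72 at 1.5 µM.

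Of 17 bicarbonate and anion exchanger genes, 5 rose and 10 fell at 0.5 µM, against 5 higher and 11 lower at 1.5 µM, beside 34.7% and 36.2% of all genes lower. SLC26A4, the anion exchanger pendrin, whose promoter with TATAAA is shown above, held 229, 226 and 283 normalized counts under DMSO, 36.3, 21.1 and 24.8 at 0.5 µM and 23.7, 19.5 and 27.7 at 1.5 µM. It fell 10.4-fold at 1.5 µM, with no difference beyond the spread between the doses (adjusted p = 0.631). SLC26A8 fell from 248 ± 17.3 to 28.7 ± 5.67 and SLC4A10, a sodium-coupled bicarbonate carrier of neurons, from 697 ± 31.2 to 215 ± 10.7. SLC4A5, another bicarbonate carrier, rose from 79.9 ± 17.5 to 195 ± 14.04 at 1.5 µM; at 0.5 µM its call was lost on FPKM values (0.48).

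The 4 nucleoside and nucleobase carriers SLC29A1, SLC29A2, SLC29A3 and SLC43A3 fell at both doses, beside 34.7% and 36.2% of all genes. SLC29A1, the main nucleoside transporter ENT1, fell from 4721 ± 70.1 to 2784 ± 39.05 normalized counts at 1.5 µM, and SLC43A3, a purine nucleobase carrier, from 7005 ± 111 to 2650.3 ± 67.9. Of 7 vitamin carriers 1 rose and 5 fell at each dose, beside the same shares. SLC19A1, the reduced folate carrier, fell from 4063 ± 88.5 to 1453 ± 9.37 and SLC23A2, an ascorbate importer, rose from 2799 ± 158 to 5591 ± 76.8. These 4 genes, SLC29A2 and SLC29A3 were named after their values were seen. SLC8A2, a sodium-calcium exchanger of neurons, fell, with means of 1467 ± 55.1 in DMSO, 568 ± 62.6 at 0.5 µM and 434 ± 9.07 at 1.5 µM. SLC44A3, a choline transporter-like protein, fell from 406 ± 36.7 to 92.5 ± 6.92 at 1.5 µM. SLC15A2, a proton-coupled peptide importer, rose from 37.9 ± 9.44 to 131 ± 19.3.
Among monocarboxylate carriers, SLC16A14 fell, with means of 988 ± 24.2 in DMSO, 409.6 ± 24.9 at 0.5 µM and 302 ± 14.9 at 1.5 µM. SLC16A1, the lactate and pyruvate carrier MCT1, rose by 0.22 ± 0.03 (log2, SE) at 1.5 µM; its call at 0.5 µM (0.10 ± 0.03) was lost on FPKM values (0.06), with upper-quartile scaling (0.05), without the 3 libraries that stand apart (0.08) and without DMSO replicate 1 or 0.5 µM replicate 1 (0.09). SLC16A3, the lactate exporter MCT4, passed at neither dose and held 108, 121 and 143 in DMSO, 162, 102 and 238 at 0.5 µM and 129, 121 and 104 at 1.5 µM. At 0.5 µM it passed without replicate 2 (0.67) and, in all libraries, with library weights (0.49). Of the chaperones of these carriers, BSG rose from 44485 ± 565 to 50915 ± 946 and EMB fell from 7822 ± 262 to 5052 ± 105 at 1.5 µM. Of 30 further solute carrier genes whose symbols lack this form, 10 rose and 13 fell at 0.5 µM (76.7% called, beside 70% of all genes). At 1.5 µM 10 were higher and 14 lower (80%, beside 73.1% of all genes). Of these SLC9B1, a sodium-proton exchanger, rose from 17.3 ± 0.957 to 60.1 ± 9.42 and SLC35D3 fell from 2124 ± 68.9 to 810.0 ± 18.3 at 1.5 µM.

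**Figure D5:**
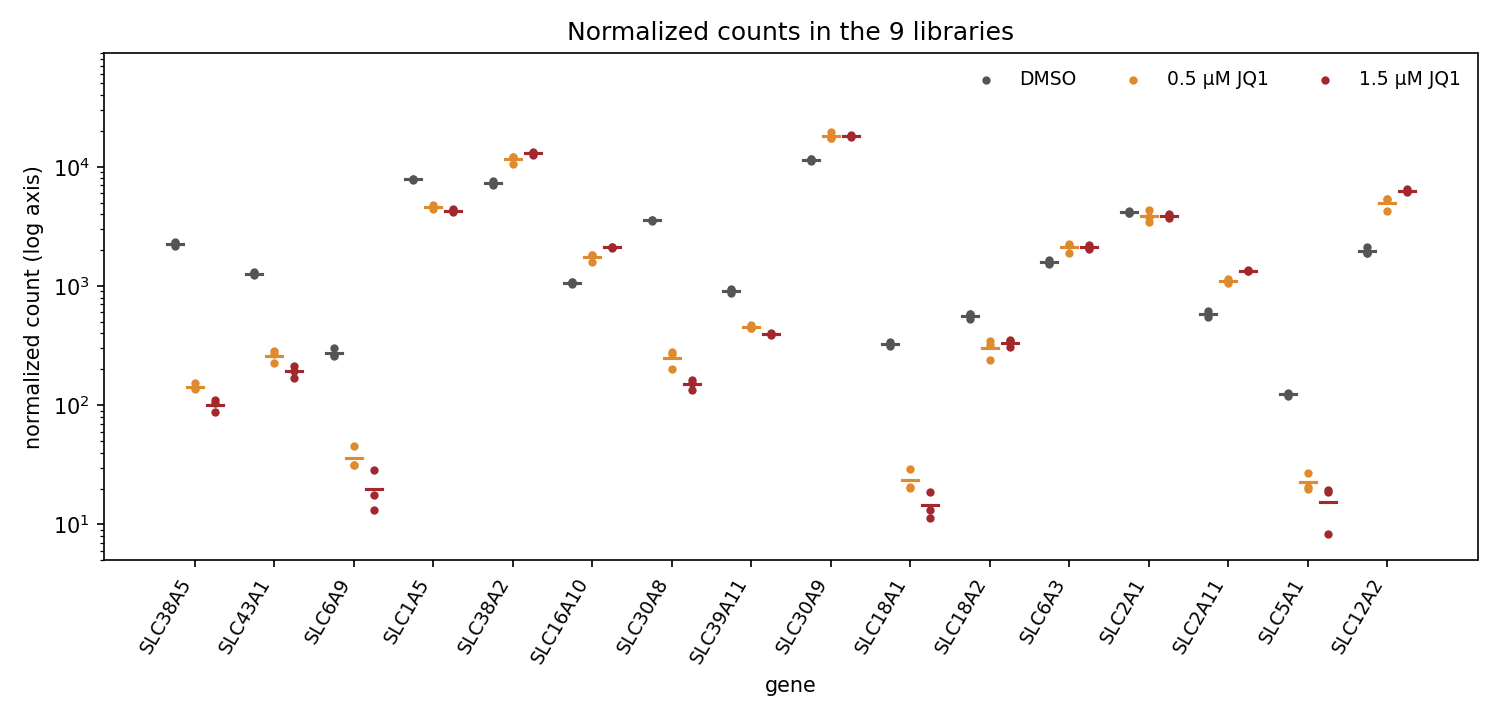
Normalized counts of 16 members in the 9 libraries on a log axis, with points for libraries and bars for group means in DMSO (grey), 0.5 µM (orange) and 1.5 µM JQ1 (red). SLC38A5, SLC30A8 and SLC18A1 lie more than 10-fold lower in JQ1 than in DMSO, while SLC2A1 lies between 3457 and 4329 in every library.

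The doses were compared directly. At 1.5 µM 13 were higher and 19 lower than at 0.5 µM, 14.2% of 225, beside 12.7% of all genes (4.66% higher and 8.09% lower). No member called differed 2-fold or more between the doses, beside 0.0457% of all genes upward and 0.183% downward, and libraries of the doses did not overlap for 34 members upward and 56 downward, or 40%, beside 33.7% of all genes. The lower calls included SLC30A8 (log2 -0.71 ± 0.12, adjusted p = 0.00476), SLC38A5 (-0.51 ± 0.10, adjusted p = 0.00831) and SLC4A10 (-0.47 ± 0.08, adjusted p = 0.00647). The higher calls included SLC12A2 (0.35 ± 0.09), SLC2A11 (0.29 ± 0.06), SLC16A10 (0.28 ± 0.06) and SLC43A2 (0.27 ± 0.05). Of the amino acid transporters 3 were higher (SLC16A10, SLC38A10 and SLC43A2) and 6 lower, among them SLC6A18 (-0.71 ± 0.17). The call for SLC12A2 was lost without any one of the 1.5 µM libraries (0.33 to 0.37). That for SLC6A18 was lost without DMSO replicate 2, 0.5 µM replicate 3, or 1.5 µM replicate 1 or 3 (-0.64 to -0.71). Without the 3 libraries that stand apart, a fit with 1 library at 1.5 µM assumed to vary like the other groups, limma called 0 members higher and 1 lower (SLC30A8, -0.73). The log2 differences without these libraries were -0.40 for SLC38A5, -0.58 for SLC4A10, -0.73 for SLC6A18, 0.45 for SLC12A2, 0.30 for SLC2A11, 0.33 for SLC16A10 and 0.26 for SLC43A2, none past the test. On FPKM values the calls of SLC2A11 (0.17), SLC43A2 (0.29), SLC12A2 (0.34), SLC4A10 (-0.42) and SLC6A18 (-0.51) were lost. Those of SLC38A5 (-0.51), SLC12A2 (0.35) and SLC6A18 (-0.71) were lost in the fit to the 6 libraries compared, and that of SLC12A2 also without trend. Without 0.5 µM replicate 2, 31 members were lower rather than 19, and 1875 of all genes rather than 1417. Without 1.5 µM replicate 3, 3 members were higher and 11 lower, beside 249 and 775 of all genes. The higher count of members was 4 without 1.5 µM replicate 2, 6 without 1.5 µM replicate 1 and 7 without DMSO replicate 2. Over all genes these higher counts were 240, 396 and 507, against 816 with all libraries.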

How the data were processed

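The main values are the signal the authors deposited per gene, DESeq2-normalized counts; dividing each library by its value of 1 read gave whole reads for 100% of them, within 0.001. The authors also deposited FPKM from RSEM, which was used to compare genes per length and as an alternative. The submitters' processing notes name cutadapt, STAR, RSEM and hg19; the sources used here give neither versions nor the strand setting, so genes that overlap others are uncertain. Gene positions are not given for hg19; promoters are those of RefSeq GRCh38.p14. The labels' protocols name a stranded TruSeq kit for total RNA.

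Tests used limma 3.58.1 (R 4.3.3) with a mean-variance trend on log2(normalized count + 1), a scale that understates changes of low genes, in all 9 libraries without a replicate block. Genes needed at least 10 normalized counts in at least 3 libraries: 17514 of 17518 passed, and so did all 225 members. P values were two-sided and adjusted by Benjamini-Hochberg over all genes, with 0.05 as the threshold. On simulated data with few changed genes the test recovered 86%, 80% and 94% of 50 genes each changed 1.5-fold, 2-fold and 4-fold at 0.5 µM, and 64%, 78% and 88% at 1.5 µM. Of the 50 genes with a smaller change it recovered 44% and 42%. It falsely called 4 of 17235 unchanged genes at 0.5 µM and 8 of 17239 at 1.5 µM. In the data 70% and 73.1% of all genes were called, so these rates need not hold there.

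The members, families, partner lists and alternatives were chosen with earlier results of these data known. Named members are, per family, up to 5 of each sign with the largest changes at 1.5 µM (past the test, no overlap, mean of at least 50) and the 2 highest by FPKM; 6 of each sign outside the families; 4 of each sign between the doses; 14 in the table of a set chosen by known role; and members that follow single libraries (a range over 8-fold within a dose). SLC6A4 of that set is outside the count table. Up to 2 genes per partner list are named by largest change. Some genes that these rules pick are not reported here. Alternatives were each library left out, the 3 libraries that stand apart left out, a replicate block, fits to only the 6 libraries of a comparison, count tests of the recovered reads (DESeq2 1.42.0, edgeR 4.0.16), library weights or no trend in limma, scaling by TMM or upper quartiles, FPKM, pseudocounts of 0.1 and 5, and a minimum of 50 or none. The count table left out 109 further members, none of which reached 0.5 FPKM in a library.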

Additional observations from a re-analysis of the deposited data

Results flagged for a closer look

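Of the solute carrier genes outside the count table, SLC1A3, a glial glutamate transporter, and SLC27A6, a fatty acid transport protein, had signal in the 3 JQ1 libraries that stand apart and were listed at 0 FPKM in DMSO and in the other 3 JQ1 libraries. SLC1A3 held 0.34 FPKM in 0.5 µM replicate 3 and 0.15 and 0.20 FPKM in 1.5 µM replicates 1 and 2. SLC27A6 held 0.16 FPKM in 0.5 µM replicate 3 and 0.25 and 0.17 FPKM in 1.5 µM replicates 1 and 2. SLC2A14, a close paralog of SLC2A3, had the same pattern at 0.13, 0.14 and 0.04 FPKM, and SLC2A10 and SLC52A3 had it at 0.01 to 0.03 FPKM. SLC1A3 and SLC27A6 were noted because the signal lies in data that the comparisons do not use, above the level in the controls.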

How the results depend on the processing

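Of 828 alternative values of the 36 counts of members called, 767 stayed within 1.5 times the reported count. Against DMSO, 2 did not, both on FPKM values: amino acid transporters higher at 0.5 µM (5) and sugar transporters lower at 1.5 µM (2). The others concern the doses compared with each other. On FPKM values 3 of the 198 members tested were higher and 10 lower, beside 174 and 718 of 17951 genes. By family, 1 amino acid, 0 sugar and 1 SLC25 gene were higher and 0 monoamine and 1 SLC25 gene lower. With library weights 29 members were higher and 43 lower, beside 2457 and 2781 of 17514 genes. By family, 5 amino acid, 4 sugar and 5 SLC25 genes were higher and 6 zinc and 7 SLC25 genes lower. Limma without trend gave 8 members and 1 sugar gene higher, beside 504 of 17514 genes. DESeq2 gave 1 SLC25 gene higher and 1 zinc gene lower, beside 1164 and 1689 of 17514 genes. In the fit to the 6 libraries compared, 6 of the 219 members tested were higher and 9 lower, beside 442 and 713 of 17364 genes. By family, 1 sugar gene was higher and 3 amino acid, 0 monoamine, 1 zinc and 1 SLC25 gene lower. Without the 3 libraries that stand apart, 0 were higher and 1 lower, the latter a zinc gene, with 0 amino acid and 0 sugar genes higher and 0 amino acid, 0 monoamine and 0 SLC25 genes lower. Over all genes this fit called 0 higher and 90 lower.

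With each library left out in turn, the dose comparison gave 3 to 14 members higher and 11 to 31 lower. Over all genes these fits gave 240 to 1342 higher and 755 to 1875 lower. By family the ranges were 2 to 3 amino acid genes higher and 5 to 8 lower, 1 to 2 sugar genes higher, 0 to 1 monoamine genes lower, 1 to 3 zinc genes lower and 1 to 4 SLC25 genes lower. Of all genes called between the doses, 36.5% were higher, against 19.5% on FPKM values and 46.9% with library weights. With upper-quartile scaling the median log2 fold change of all genes at 0.5 µM was -0.064, against -0.010 as reported.

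Among the members named by the rule, for which alternatives were computed, the sign turned for 4 genes, none past the test as reported. With each library left out in turn, SLC25A3 at 1.5 µM ranged from -0.00127 to 0.0374, SLC25A5 at 1.5 µM from -0.00433 to 0.0248, SLC16A3 at 1.5 µM from -0.162 to 0.0357 and SLC39A7 at 0.5 µM from -0.00951 to 0.0406. SLC25A3 at 1.5 µM was -0.0337 on FPKM values, -0.0302 with upper-quartile scaling and -0.00127 without DMSO replicate 3. SLC25A5 was 0.000435 at 0.5 µM with library weights, and at 1.5 µM -0.0492 on FPKM values, -0.041 with upper-quartile scaling, -0.000132 without DMSO replicate 3 and -0.00433 without 1.5 µM replicate 1. SLC16A3 at 1.5 µM was 0.0357 without DMSO replicate 3 and 0.0173 without 1.5 µM replicate 3. SLC39A7 at 0.5 µM was -0.0328 on FPKM values, -0.037 with upper-quartile scaling, -0.00453 with library weights and -0.00951 without 0.5 µM replicate 2.

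Deviations of same-numbered libraries from their group means correlated between -0.385 and 0.131, and those of different-numbered libraries between -0.145 and 0.253. With 3 libraries per group, these values cannot show whether the samples were paired. With the replicate block, 66 members were higher and 98 lower at 0.5 µM, 72 and 106 at 1.5 µM, and 12 and 17 between the doses, with 1 zinc gene lower. All genes gave 6195 higher and 6134 lower at 0.5 µM, 6482 and 6370 at 1.5 µM, and 759 and 1271 between the doses. At 60721187 to 88482001 reads per library, members with a mean under 100 normalized counts carry the widest errors.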
